A study of Mus musculus with 9 samples.

Results

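Cells of the mouse lung sorted as positive for both a type I collagen reporter and a Foxf1 reporter (DBL) were compared with cells sorted as positive for the Foxf1 reporter alone (TDonly), across all genes. The comparison uses 6 of the study's 9 RNA-seq samples: DBL replicates 1, 3 and 4, and TDonly replicates 1, 2 and 3, in that order wherever 3 values are listed. All 6 came from mice of 1 genotype, Col1_GFP;Foxf1_tdTomato on C57BL/6J. Therefore both populations carry both reporters and differ by sort gate, not by treatment. The sources used here do not give the age or sex of the mice, the number of animals behind a sample or how each reporter was built. The labels' protocol describes RNA taken from frozen lungs, whereas the design text describes sorted cells with ribosomal RNA depletion. Nothing in the labels says that replicates are separate animals, so p-values measure the spread between these samples, which may be technical. The other 3 samples, sorted for the collagen reporter alone, enter only an alternative fit.

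Foxf1 encodes a forkhead factor found in lung mesenchyme and in the endothelium of lung capillaries. It acts downstream of hedgehog signalling from the epithelium during lung development. Fendrr is a long noncoding RNA transcribed from the neighbouring locus in the opposite direction. Type I collagen, a trimer of the Col1a1 and Col1a2 chains, is made by fibroblasts and other mesenchymal cells and is the main fibrillar collagen of the lung interstitium. Endothelial cells make mostly basement membrane collagens.

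Levels are given as CPM, counts per 1000000 counts of the library size after TMM scaling. The sequencing core's sample numbers fall into 2 series: the first holds replicate 1 of each population and the second the other 4 libraries. A fold change is log2 of DBL over TDonly from a fit that holds the series constant. Total counts ran from 20765519 to 26147475 per library and 17326 to 17753 genes had at least 1 count. The ribosomal precursor Rn45s took 2.77 to 7.90% of counts. None of the 11 housekeeping genes listed passed the test, and their median log2 fold change was -0.08. Actb, cytoplasmic actin, was at 3631, 3111 and 3481 CPM in DBL and 3524, 3608 and 3696 CPM in TDonly. No 2 libraries of a population held identical counts, and the 2 libraries of the second series were nearer to each other than to replicate 1 in both populations.

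DBL and TDonly differed across much of the transcriptome. Of 15321 genes tested, 6588 differed at an adjusted p under 0.05 (43.0%). Of these, 3372 were higher in DBL (22.0% of genes tested) and 3216 lower (21.0%). The higher genes moved further. A 2-fold size was passed by 1776 higher genes (11.6%) and 971 lower ones (6.34%), 4-fold by 780 against 33, and 8-fold by 246 against 2. Those 2 genes, Tfec and Otx1, were named after their values were seen and averaged 1.85 and 0.624 CPM in TDonly. The libraries of the populations did not overlap at 7139 genes (46.6%), and 6580 of the 6588 genes that differed had the same sign within both series. With library totals in place of TMM factors the split was 2796 higher and 4249 lower, so 39.7% of calls were higher against 51.2%. Because so many genes passed, a count of list members is read below against these percentages.

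**Figure D1:**
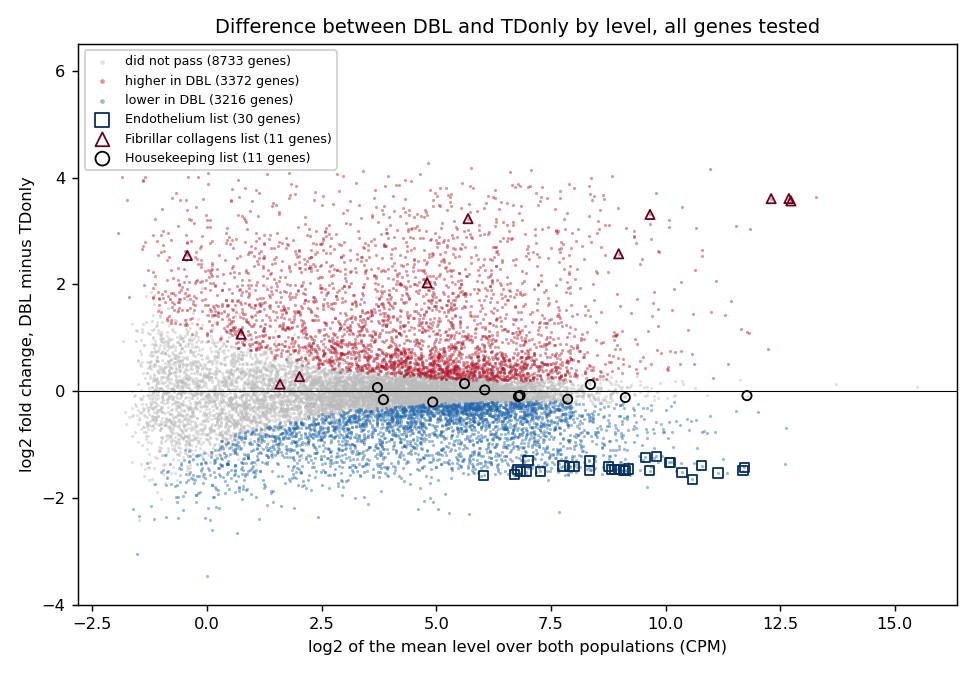
Each point is 1 of the 15321 genes tested, with log2 of its mean CPM over both populations on the x axis and its log2 fold change (DBL minus TDonly) on the y axis. Red genes (3372) were higher and blue genes (3216) lower in DBL. The 30 endothelial markers form a narrow band between -1.65 and -1.22, the 11 fibrillar collagen genes reach 3.61, and the 11 housekeeping genes lie between -0.20 and 0.14.

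The type I collagen chains and the genes of the Foxf1 locus come first, because the reporters are named for type I collagen and Foxf1. Col1a1 was at 9830.1, 12664 and 13660.4 CPM in DBL and 365, 1539 and 1626 CPM in TDonly, so each DBL library was above each TDonly library. Its mean was 12052 ± 1987 CPM in DBL and 1176 ± 704 CPM in TDonly (SD, n = 3), with a log2 fold change 3.61 ± 0.33, SE, edgeR adjusted p = 6.63e-05. Col1a2, the partner chain, was at 7668, 9803 and 10185 CPM in DBL and 291, 1174 and 1209.6 CPM in TDonly (log2 fold change 3.60 ± 0.32, SE, edgeR adjusted p = 5.74e-05). Both chains were thus present in the population sorted without the collagen reporter, and TDonly replicate 1 held less of them than its other replicates. Foxf1, listed as Foxf1a (chr8:121084386-121088144, plus strand, GRCm38), was at 117, 90.3 and 106 CPM in DBL and 274, 238 and 238 CPM in TDonly (log2 fold change -1.26 ± 0.080, SE, edgeR adjusted p = 1.22e-05). Fendrr (chr8:121054882-121083110, minus strand), listed as 1110050K14Rik, was at 145, 76.8 and 81.0 CPM in DBL and 299, 159 and 149 CPM in TDonly (log2 fold change -0.99 ± 0.069, SE, edgeR adjusted p = 1.76e-05). The annotated genes do not overlap. Both transcripts of the Foxf1 locus were therefore detected in all 6 libraries and were lower in the cells positive for both reporters. In bulk samples, fewer cells of a type and less RNA per cell cannot be told apart, here and in every result that follows.

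**Figure D2:**
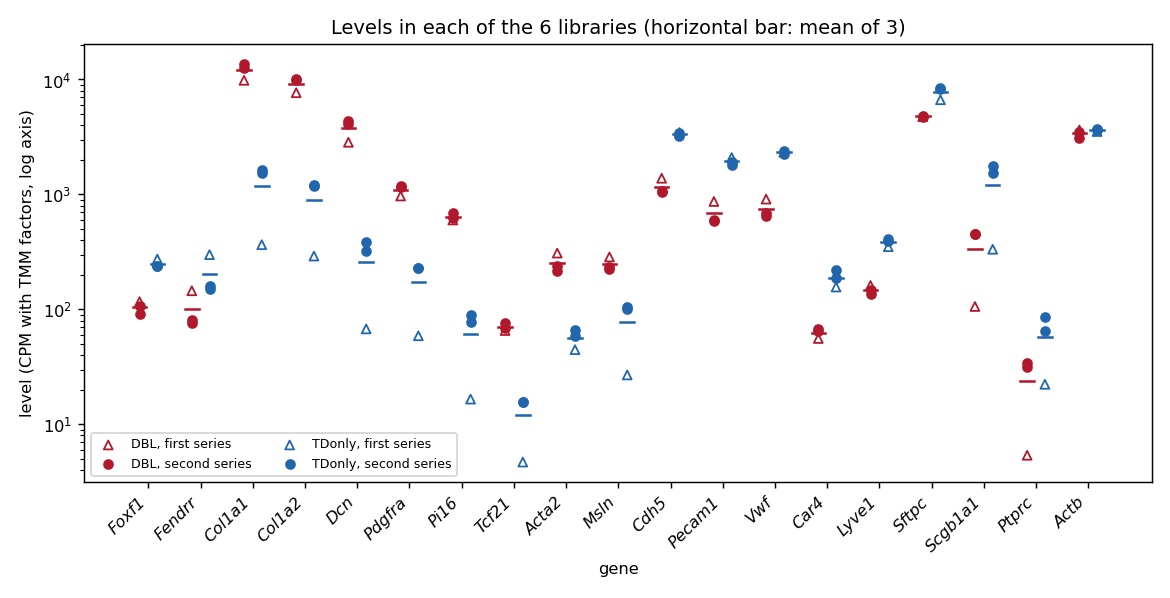
Levels of 19 genes in each library as CPM on a log axis, with DBL in red, TDonly in blue, open triangles for the first series, filled circles for the second and bars for means of 3. The collagen and fibroblast genes are higher in DBL, and Foxf1, Fendrr and the endothelial genes are lower. The lowest Col1a1, Dcn, Pdgfra, Pi16, Tcf21 and Msln values are those of TDonly replicate 1.

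Among 14 forkhead and Foxf1-locus genes, 8 were higher in DBL and 3 lower, with a median log2 fold change of 0.63 against -0.02 over all genes. The lower share (21.4%) was near that of all genes (21.0%). Foxp1 was the third lower member, at 211, 251 and 229.6 CPM in DBL and 393, 458 and 469 CPM in TDonly (log2 fold change -0.93 ± 0.069, SE, edgeR adjusted p = 2.41e-05). Foxf2, the closest paralog of Foxf1, moved the other way, at 25.4, 25.9 and 25.3 CPM in DBL and 4.20, 11.0 and 10.9 CPM in TDonly (log2 fold change 1.65 ± 0.25, SE, edgeR adjusted p = 0.00103). Per length, Foxf1 averaged 43.2 RPKM in DBL and 103 RPKM in TDonly. Foxf2 averaged 10.8 RPKM in DBL and 3.67 RPKM in TDonly, so Foxf1 was the more abundant of the pair in both populations. Foxl1, a mesenchymal forkhead factor of the same gene cluster as Foxf1, rose from 2.37, 2.56 and 2.42 CPM in TDonly to 9.0, 14.2 and 17.1 CPM in DBL (log2 fold change 2.41 ± 0.19, SE, edgeR adjusted p = 3.40e-05). Foxp2 (1.64) and Foxp4 (0.75) were also higher on the log2 scale. The 3 others, among them Foxo1 (-0.18) and Foxm1 (-0.33), did not pass the test. With library totals as the scale Foxo1 and Foxm1 were lower, by -0.29 and -0.44 (edgeR adjusted p = 0.0127 and 0.0404), so 5 members were lower.

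Endothelial genes were lower in DBL as a block. All 30 members of a panel of endothelial markers were lower, against 21.0% of all genes. They had a median log2 fold change of -1.47 (2.77-fold by the median size). The members lay between -1.65 and -1.22, an SD between members of 0.097, and the libraries of the populations overlapped at none of them. Their summed level was 11942 to 14294 CPM in DBL and 34699 to 35123 CPM in TDonly, so endothelial transcripts were reduced in DBL but far from absent. The endothelial cadherin Cdh5 was at 1382, 1050.3 and 1077 CPM in DBL and 3456, 3195 and 3427 CPM in TDonly (log2 fold change -1.53 ± 0.088, SE, edgeR adjusted p = 8.61e-06). Pecam1, the endothelial junction receptor also called CD31, was at 868, 592 and 598 CPM in DBL and 2093, 1802 and 1919 CPM in TDonly (log2 fold change -1.52 ± 0.094, SE, edgeR adjusted p = 1.09e-05). Vwf, the clotting glycoprotein stored in endothelial granules, was at 911, 683 and 649 CPM in DBL and 2327, 2391 and 2233 CPM in TDonly (log2 fold change -1.65 ± 0.10, SE, edgeR adjusted p = 1.20e-05). The genes of lowest adjusted p in the panel were Sox17, S1pr1, Cyyr1, Robo4, Ramp2 and Cldn5, with log2 fold changes of -1.51, -1.46, -1.48, -1.4, -1.41 and -1.47. The 10 most abundant lower genes by the naming rule carried like sizes: the hypoxia factor Epas1 (-1.37), the adhesion receptor Gpr116 (-1.43), the phosphatase Ptprb (-1.49), Cd93 (-1.54) and angiotensin-converting enzyme Ace (-1.27). They also included Cdh5, the adrenomedullin receptor subunit Calcrl (-1.39), Vwf, the BMP receptor Acvrl1 (-1.34) and the water channel Aqp1 (-1.07).

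Promoters of 2 of these genes are shown because they hold AGGAAG, letters that were more common before the starts of the lower genes. ETS factors, among them the endothelial regulator Erg, bind sites built around a GGAA core. The letters AGGAAG were searched on both strands in the 250 bases before each RefSeq start on GRCm38.p6. The match is in capitals. Robo4 lies on the plus strand with 1 match, 49 bases before the start. Flt1, the VEGF receptor 1 gene, lies on the minus strand with 2 matches, 129 and 53 bases before it.
Robo4, chr9:37401722-37401971, plus strand: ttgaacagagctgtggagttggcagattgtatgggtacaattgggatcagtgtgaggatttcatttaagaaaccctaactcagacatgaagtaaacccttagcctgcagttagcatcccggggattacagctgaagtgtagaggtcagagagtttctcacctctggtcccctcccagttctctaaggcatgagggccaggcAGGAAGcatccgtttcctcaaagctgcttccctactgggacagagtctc
Flt1, chr5:147726012-147726261, minus strand: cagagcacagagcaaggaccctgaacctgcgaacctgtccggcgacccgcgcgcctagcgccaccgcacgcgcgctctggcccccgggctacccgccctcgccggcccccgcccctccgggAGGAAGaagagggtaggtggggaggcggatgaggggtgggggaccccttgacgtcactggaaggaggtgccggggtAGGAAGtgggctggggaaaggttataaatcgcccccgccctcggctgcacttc
These letters occurred in 12 of 25 windows of 17 genes of the endothelial panel (48.0%). They occurred in 40.9% of 889 windows of genes at least 2-fold lower in DBL, which include those of the panel. In genes at least 2-fold higher they occurred in 26.1% of 1703 windows. The share was 28.4% of 14943 windows of all genes tested and 29.5% of 32851 windows in the table. The TATA box letters TATAAA were also more common there, in 11.2% of windows of the lower genes, 8.93% of those of the higher genes, 7.09% of those of all genes tested and 2 of the 25 of the endothelial panel. A forkhead core, TGTTTAC, was in 2.59% of windows of the lower genes, 2.35% of those of the higher genes and 2.24% of those of all genes tested. These are counts of letters, with no test, and say nothing of whether a factor binds.

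Marker lists of lung endothelial subtypes differed in their share of lower members, and all but the general capillary list held members that were higher. Of all genes 22.0% were higher, so such members alone do not mark out a list. The higher share was below this in the aerocyte and venous lists and above it in the arterial and lymphatic lists. General capillary markers fell together, 14 of 15 lower with a median of -1.47, against 21.0% of all genes. The glucagon-like peptide receptor Glp1r was at 64.0, 82.6 and 80 CPM in DBL and 176, 239 and 230.3 CPM in TDonly (log2 fold change -1.51 ± 0.066, SE, edgeR adjusted p = 6.23e-06). The stem cell factor receptor Kit (-1.45) and Bmp6 (-1.55) were lower by like amounts, while lipoprotein lipase Lpl did not pass the test (-0.10; -0.27 and edgeR adjusted p = 0.0118 without TDonly replicate 1). Of 15 aerocyte markers, the capillary cells specialised for gas exchange, 10 were lower and 3 higher (median -1.19). The carbonic anhydrase Car4 was at 55.8, 64.4 and 68.1 CPM in DBL and 156, 188 and 220.1 CPM in TDonly (log2 fold change -1.58 ± 0.085, SE, edgeR adjusted p = 7.92e-06). Ednrb, the endothelin receptor of aerocytes, fell by a like amount (-1.35). The aerocyte members that were higher were Tmeff2 (1.09), Igfbp7 (0.90) and Fibin (0.39), the last short of the threshold with library totals as the scale (edgeR adjusted p = 0.0767). Arterial markers split, with 11 of 16 lower and 4 higher, the higher share (25.0%) being near that of all genes (22.0%). Their summed level overlapped between populations, at 4177 to 4974 CPM in DBL and 3943 to 4593 CPM in TDonly. Efnb2 (-1.46), Dll4 (-1.32), Hey1 (-1.15) and Jag2 (-1.50) were lower. The matrix genes Fbln2 (2.48), Fbln5 (1.27) and Mgp (3.08) and the connexin Gja5 (0.29) were higher, Gja5 with an edgeR adjusted p of 0.146 on library totals and 0.0832 without TDonly replicate 1. Venous markers were lower at 10 of 14, with Ephb4 (-1.21), the noradrenaline transporter Slc6a2 (-1.57) and P-selectin Selp (-1.43) among them. They were higher at Nr2f2 (1.82) and Vcam1 (1.38), genes also made by mesenchymal cells. Of 10 lymphatic markers 6 were lower. Lyve1, the hyaluronan receptor, was at 161, 148 and 136 CPM in DBL and 351, 390.0 and 408 CPM in TDonly (log2 fold change -1.37 ± 0.095, SE, edgeR adjusted p = 1.76e-05). Flt4 (-1.38), Mmrn1 (-1.14) and Prox1 (-1.01) were lower too, and Sema3d (3.10), Fgl2 (1.36) and Pdpn (1.55) were higher. Endothelial transcription factors were lower at 18 of 21 (median -1.27). Gata2 was at 129, 112 and 115 CPM in DBL and 377, 344 and 338 CPM in TDonly (log2 fold change -1.57 ± 0.065, SE, edgeR adjusted p = 6.20e-06). Sox7 and Bcl6b changed by -1.41 and -1.34, and Erg by -1.30. Klf4 (0.46) and Nr2f2 were the members that were higher, and Mecom did not pass the test (0.17).

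Fibrillar collagen genes rose in DBL. Of 11 genes 9 were higher, against 22.0% of all genes, and none lower, with a median log2 fold change of 2.57. Their summed level was 30770 to 39439 CPM in DBL against 1269 to 4942 CPM in TDonly. Type III collagen, Col3a1, the usual companion of type I in interstitial fibres, was at 11193, 13149.5 and 12888 CPM in DBL and 428, 1545 and 1687 CPM in TDonly (log2 fold change 3.56 ± 0.33, SE, edgeR adjusted p = 7.10e-05). Col5a1, a chain of the type V collagen that starts fibrils, was at 1154, 1550.3 and 1669 CPM in DBL and 69.3, 210.4 and 208 CPM in TDonly (log2 fold change 3.31 ± 0.22, SE, edgeR adjusted p = 1.45e-05). Col5a2 and Col5a3 changed by 2.57 and 3.23. The cartilage collagen gene Col11a2 (0.27) and 1 other did not pass the test. Since 1 gate selected on a collagen reporter, the rise of type I collagen is a check of the sort and not a finding. The promoter of Col1a2 is shown because the gene encodes the partner chain of Col1a1. The sources used here do not say whether the collagen reporter was built from it. The capitals mark a CCAAT box, the letters bound by nuclear factor Y, 109 bases before the start.
Col1a2, chr6:4505368-4505617, plus strand: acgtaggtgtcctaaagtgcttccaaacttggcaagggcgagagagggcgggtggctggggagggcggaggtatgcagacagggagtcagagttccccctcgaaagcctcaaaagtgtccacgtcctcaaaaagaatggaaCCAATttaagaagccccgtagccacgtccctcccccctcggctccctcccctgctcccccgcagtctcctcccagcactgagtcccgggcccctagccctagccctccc
CCAAT letters were in 25.0% of 44 windows of the matrix genes, 31.2% of those of genes at least 2-fold higher, 30.8% of those of genes at least 2-fold lower and 34.4% of those of all genes tested, close to each other and with no test.

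Most collagen genes outside the fibrils were higher in DBL. Of 23 network and beaded collagens 17 were higher, 2 were lower and 4 did not pass the test (median 1.70). The type VI chain Col6a1 was at 1360.5, 1631 and 1727 CPM in DBL and 140.2, 347 and 342 CPM in TDonly (log2 fold change 2.61 ± 0.19, SE, edgeR adjusted p = 2.30e-05). Col6a6, of the same type, rose by 3.85. Col14a1, which decorates fibrils, rose by 3.71. The type IV collagen genes split. Col4a1 was lower, at 3684, 1971 and 1995 CPM in DBL and 5134, 2491 and 2473 CPM in TDonly (log2 fold change -0.38 ± 0.069, SE, edgeR adjusted p = 0.00301). Col4a2 was lower too (-0.47), Col4a5 (2.0) and Col4a6 (2.57) were higher, and Col4a3 did not pass the test (0.16). Col4a1 and Col4a2, and likewise Col4a5 and Col4a6, lie head to head in the genome, and each pair moved together. Col15a1 and Col18a1, the multiplexin collagens of vessel walls, were higher overall (2.29 and 1.19) and by more in the second series (2.87 and 1.52) than in the first (1.09 and 0.54).

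Genes of collagen modification and crosslinking rose, not all of them enzymes. Of 25 genes 24 were higher and none lower, with a median of 1.44. Serpinh1, the collagen chaperone Hsp47, was at 928, 841 and 925 CPM in DBL and 289, 341 and 346 CPM in TDonly (log2 fold change 1.47 ± 0.089, SE, edgeR adjusted p = 1.04e-05). Sparc, a collagen-binding glycoprotein, was at 3776, 3376 and 3839.9 CPM in DBL and 1439, 1223 and 1436 CPM in TDonly (log2 fold change 1.42 ± 0.091, SE, edgeR adjusted p = 1.24e-05). The prolyl isomerase Fkbp10 changed by 1.44. The lysyl oxidases that crosslink fibres outside the cell were higher too. Lox was at 306, 389 and 344 CPM in DBL and 21.4, 61.4 and 60.3 CPM in TDonly (log2 fold change 2.99 ± 0.24, SE, edgeR adjusted p = 3.29e-05). Loxl1 and Loxl2 rose by 3.18 and 2.10. The hydroxylases P4ha1 (0.73) and Plod2 (0.87) were higher by less than 2-fold, and 1 member did not pass the test. Small leucine-rich proteoglycans and their relatives were higher at 12 of 13 (median 2.90). Dcn, decorin, which binds and spaces collagen fibrils, was at 2842, 4112 and 4350.4 CPM in DBL and 67.6, 323 and 387 CPM in TDonly (log2 fold change 4.16 ± 0.36, SE, edgeR adjusted p = 5.27e-05). Lum, lumican, was at 215, 292 and 256 CPM in DBL and 6.80, 18.7 and 21.5 CPM in TDonly (log2 fold change 4.14 ± 0.24, SE, edgeR adjusted p = 8.87e-06). Biglycan Bgn, versican Vcan and asporin Aspn rose by 2.65, 3.01 and 3.47. Hapln1 did not pass the test (-0.54).

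Elastic fibre genes were higher at 16 of 17 (median 2.03). Elastin, Eln, was at 2716, 3840.5 and 4053 CPM in DBL and 571, 1011 and 1002 CPM in TDonly (log2 fold change 2.06 ± 0.084, SE, edgeR adjusted p = 5.83e-06). The fibrillin gene Fbn1 was at 2377, 3085 and 3131 CPM in DBL and 169.5, 481 and 489.8 CPM in TDonly (log2 fold change 3.05 ± 0.22, SE, edgeR adjusted p = 2.02e-05). Fbln1, which encodes fibulin-1 and is among the 10 genes of largest rise, changed by 4.03. The latent TGF-beta binding proteins Ltbp4 and Ltbp3 rose by 2.27 and 1.52, and Mfap2 did not pass the test (-0.03). Matricellular and adhesive glycoproteins were higher at 23 of 25 (median 2.15). Thrombospondin 2, Thbs2, was at 94.3, 167 and 173 CPM in DBL and 5.58, 13 and 14.3 CPM in TDonly (log2 fold change 3.77 ± 0.11, SE, edgeR adjusted p = 4.61e-06). Tnxb, fibronectin Fn1, periostin Postn and Ccn1, a YAP target listed as Cyr61, rose by 3.46, 2.53, 1.35 and 1.72. Hmcn1 was the 1 lower member (-0.35). Tenascin C, Tnc, was at 259, 56.2 and 55.4 CPM in DBL and 27.4, 28.5 and 22.9 CPM in TDonly, so its excess in DBL was mainly in replicate 1.

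Basement membrane and adhesion genes did not move in 1 direction. Of 15 laminin, nidogen and related genes 9 were higher and 5 lower. The mesenchymal and vascular chains Lamb1 (2.24), Lama4 (2.01), Lamc1 (1.65) and Lamb2 (1.10) were higher. Lama1 was lower, at 6.95, 9.32 and 11.8 CPM in DBL and 24.4, 32.9 and 32.9 CPM in TDonly (log2 fold change -1.69 ± 0.12, SE, edgeR adjusted p = 1.93e-05). Lower too were Agrn (-0.44), Lama5 (-0.55), Lama3 (-0.41) and Lamb3 (-0.54), of which the last pair are epithelial chains. Integrins divided with 7 of 18 higher and 8 lower. The collagen receptor of fibroblasts Itga11 (3.40), Itgb8 (3.16), Itga8 (1.85), Itgb5 (1.27), Itgav (0.93), Itga10 (1.03) and Itga9 (0.39) were higher. By contrast, Itga1 (-1.32), the laminin receptor chain Itga6 (-1.41) and Itga3 (-1.03) were lower. Matrix proteases and their inhibitors were higher at 17 of 22. The 2 lower members were Mmp15 (-1.21) and the leukocyte gelatinase Mmp9 (-1.28), and 4 were lower with library totals as the scale. Mmp3, stromelysin, was at 203, 211 and 219 CPM in DBL and 6.03, 21.8 and 21.2 CPM in TDonly (log2 fold change 3.84 ± 0.32, SE, edgeR adjusted p = 4.15e-05). The gelatinase Mmp2 rose by 3.10, Mmp14 by 1.86, Timp2 by 1.54 and Adamts12 by 3.11.

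Markers of several mesenchymal cell types were higher in DBL at once. Of 25 adventitial fibroblast markers 21 were higher (median 3.17), and the summed level was 12290 to 15588 CPM in DBL against 3023 to 3478 CPM in TDonly. Pi16, the marker of the adventitial fibroblasts around vessels and airways, was at 599, 622 and 689 CPM in DBL and 16.6, 78.0 and 88.5 CPM in TDonly (log2 fold change 3.65 ± 0.42, SE, edgeR adjusted p = 2.20e-04). Clec3b, Cygb, Has1 and Entpd2 rose by 3.84, 3.69, 3.61 and 3.66. The lower members were Ly6c1 (-1.07), Dpp4 (-0.81) and Ly6a (-0.58). The Ly6 genes are close copies of each other whose reads may be shared, and they are also made by endothelium. Of 19 alveolar fibroblast markers 16 were higher (median 1.73). Pdgfra, the PDGF receptor of these cells, was at 969, 1180.2 and 1151 CPM in DBL and 58.9, 230.0 and 228 CPM in TDonly (log2 fold change 2.89 ± 0.32, SE, edgeR adjusted p = 1.72e-04). Tcf21, their lineage factor, was at 65.5, 68.9 and 75.6 CPM in DBL and 4.70, 15.7 and 15.7 CPM in TDonly (log2 fold change 2.68 ± 0.28, SE, edgeR adjusted p = 1.43e-04). Gdf10 (4.11) rose furthest, Npnt (1.4) and Limch1 (1.13) less, and Scn7a was lower (-0.56). Ces1d (0.12) and Plin2 (-0.31) did not pass the test. Without TDonly replicate 1 these were lower, by -0.25 and -0.54 (edgeR adjusted p = 0.0178 and 4.70e-04).

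Most contractile and mural genes tested were higher in DBL. Smooth muscle and myofibroblast markers were higher at 15 of 18 (median 1.79). Acta2, smooth muscle actin, was at 309, 215 and 239 CPM in DBL and 44.6, 58.3 and 65.6 CPM in TDonly (log2 fold change 2.18 ± 0.18, SE, edgeR adjusted p = 4.01e-05). Tagln, Myh11, Cnn1 and Actg2 rose by 1.78, 1.81, 1.96 and 2.43. Of 16 pericyte markers 10 were higher and 1 lower (median 1.02). Kcnj8, a potassium channel subunit, was at 25.2, 38.3 and 42.6 CPM in DBL and 2.02, 3.43 and 4.61 CPM in TDonly (log2 fold change 3.42 ± 0.15, SE, edgeR adjusted p = 6.23e-06). Its partner Abcc9 (3.74), the receptor Pdgfrb (2.34) and Cspg4 (1.15) were higher, and Mcam, shared with endothelium, was lower (-1.22). The more restricted pericyte genes Rgs5 (-0.44), Higd1b (-0.43), Cox4i2 (-0.26) and Trpc6 (-0.34) did not pass the test. Rgs5 was at 6.13, 7.97 and 5.42 CPM in DBL and 8.02, 9.41 and 9.08 CPM in TDonly. Trpc6 was lower without TDonly replicate 1 (-0.62, edgeR adjusted p = 0.00306), and Rgs5 with library totals as the scale (-0.55, edgeR adjusted p = 0.0343). Mesothelial markers, of the cells that line the pleura, were higher at 10 of 13 (median 1.86). Their summed levels were 949 to 1102 CPM in DBL and 189 to 526 CPM in TDonly. Msln, mesothelin, was at 286, 234 and 225 CPM in DBL and 26.9, 105 and 101 CPM in TDonly (log2 fold change 1.86 ± 0.41, SE, edgeR adjusted p = 0.00680). Upk3b and Wt1 rose by 1.87 and 1.90, and the keratin Krt8 was lower (-0.42).

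**Figure D3:**
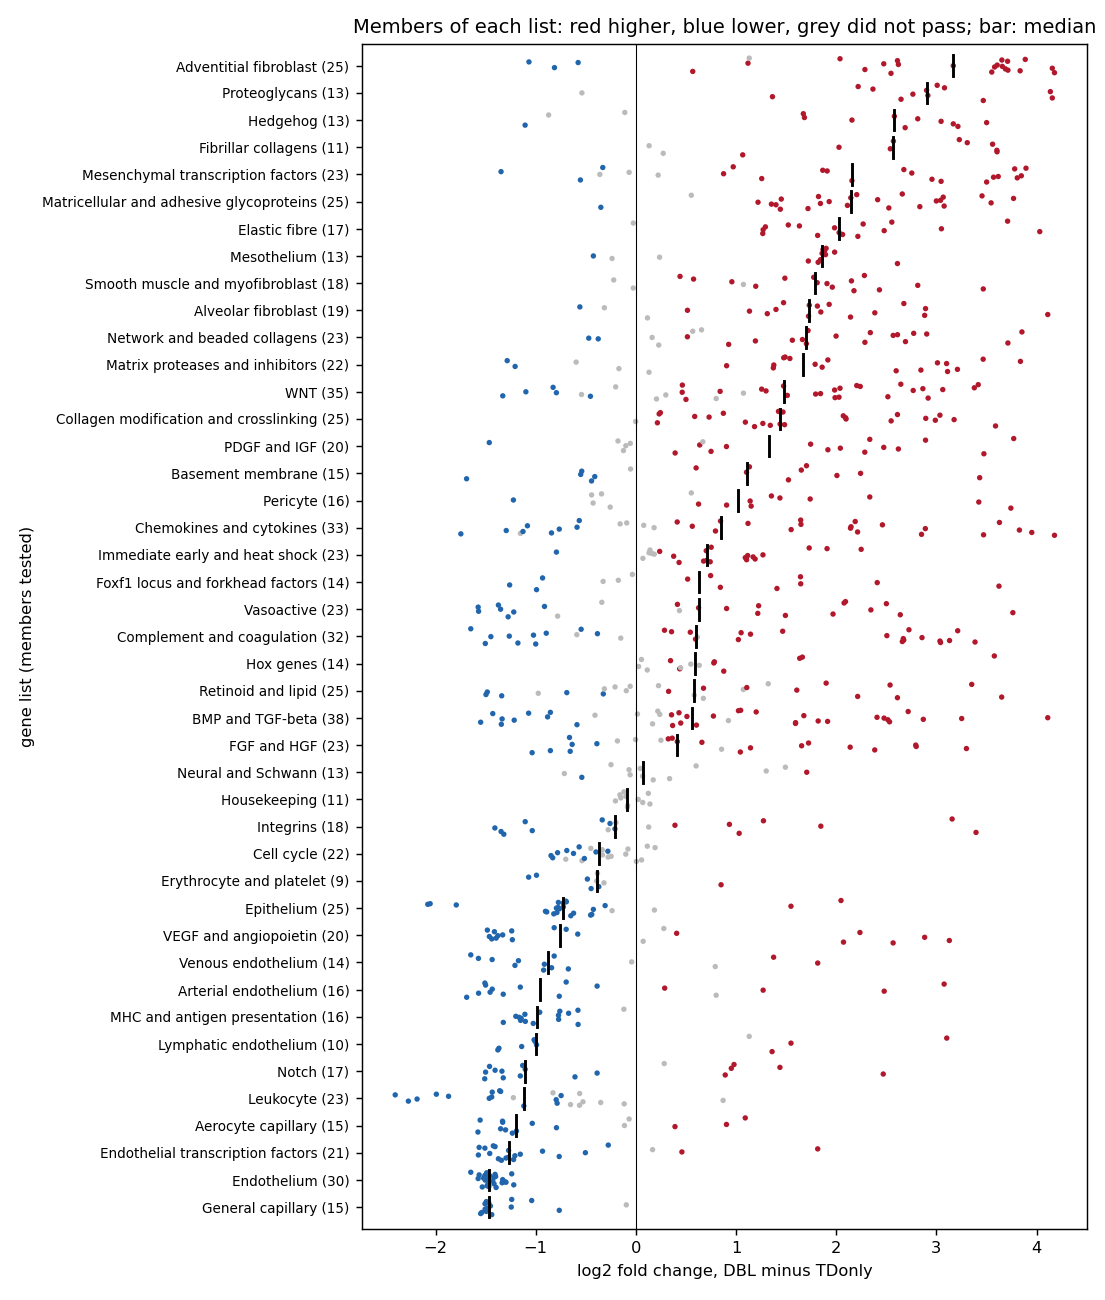
Each row is a gene list, with the number of members tested, ordered by its median log2 fold change (black bar; DBL minus TDonly on the x axis), and each point is a member. Red members were higher, blue lower, and grey did not pass. Adventitial fibroblast, proteoglycan, hedgehog and fibrillar collagen lists sit at the top and endothelial lists at the bottom, with the Endothelium points packed between -1.65 and -1.22.

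Transcription factors of the mesenchyme followed the markers. Of 23 listed 17 were higher (median 2.16). Twist2 was at 10.3, 20.6 and 22.3 CPM in DBL and 0.497, 1.61 and 1.55 CPM in TDonly (log2 fold change 3.89 ± 0.17, SE, edgeR adjusted p = 6.23e-06). Prrx1, Osr1 and Meox2 rose by 3.62, 3.81 and 2.96. The T-box factors of the lung split. Tbx4, a lung mesenchyme regulator, was at 90.9, 90.8 and 95.8 CPM in DBL and 11.4, 36.2 and 33.4 CPM in TDonly (log2 fold change 1.91 ± 0.28, SE, edgeR adjusted p = 8.79e-04). Tbx5 rose by 1.87, and Tbx2 did not pass the test (-0.07, 95% interval -0.25 to 0.12). Tbx3 was lower, at 235, 234 and 249 CPM in DBL and 594, 631 and 603 CPM in TDonly (log2 fold change -1.35 ± 0.068, SE, edgeR adjusted p = 7.61e-06). Meox1 (-0.55) and Zeb1 (-0.33) were the other lower members. Hox genes, which mark position along the body axis, changed less, with 8 of 14 higher and none lower (median 0.59). Hoxa5, the member best known for lung development, was at 33.6, 47.5 and 47.2 CPM in DBL and 32.7, 46.7 and 46.5 CPM in TDonly. Its log2 difference was 0.03 (95% interval -0.14 to 0.19), and the sign turned with library totals as the scale (-0.085) and with upper-quartile factors (-0.037). Hoxb3 and Hoxb6 rose by 0.78 and 1.64.

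Hedgehog genes rose at the level of receptors, effectors and target. Of 13 tested 10 were higher and 1 lower (median 2.58). The receptor Ptch1, itself a target, was at 225, 322 and 350.4 CPM in DBL and 74.5, 99.8 and 103 CPM in TDonly (log2 fold change 1.68 ± 0.073, SE, edgeR adjusted p = 6.23e-06). The transducer Smo rose by 1.67, and the co-receptors Boc and Cdon by 2.69 and 3.22. The effector and target Gli1 was at 85.9, 98.0 and 104 CPM in DBL and 3.82, 11.2 and 12.4 CPM in TDonly (log2 fold change 3.50 ± 0.25, SE, edgeR adjusted p = 2.09e-05). Gli2 and Gli3 rose by 3.05 and 2.16, and the antagonist Hhip by 2.81. The ligand Dhh was lower (-1.11), and Shh did not pass the test (-0.87). WNT genes were higher at 24 of 35 and lower at 5 (median 1.47). Among ligands, Wnt5a was at 123, 160.2 and 163 CPM in DBL and 5.84, 18 and 22.2 CPM in TDonly (log2 fold change 3.42 ± 0.26, SE, edgeR adjusted p = 2.69e-05). Wnt2b, Wnt9a, Wnt11 and Wnt2 rose by 2.21, 2.65, 2.24 and 1.47. The secreted inhibitors Sfrp1 (2.87) and Dkk3 (2.92) rose too. The receptors Fzd6 (-1.33), Fzd4 (-0.45) and Lrp5 (-0.79), the feedback gene Nkd1 (-1.10) and the effector Tcf7 (-0.83) were lower, and the general target Axin2 did not pass the test (0.21).

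BMP and TGF-beta genes were higher at 23 of 38 and lower at 9, the lower share (23.7%) being near that of all genes (21.0%). Acvrl1, a receptor of BMP signals in endothelium, was lower, at 895, 889 and 888 CPM in DBL and 2084, 2345 and 2362 CPM in TDonly (log2 fold change -1.34 ± 0.072, SE, edgeR adjusted p = 7.92e-06). The other lower members were the ligand Bmp6, the receptors Bmpr2 (-1.21) and Eng (-1.34), the inhibitory factors Smad6 (-1.43) and Smad7 (-1.07) and the target Id1 (-0.88), the receptor Acvr2b (-0.59) and the ligand Tgfb1 (-0.85). Tgfb2 (1.2) and Tgfb3 (2.72) were higher. The secreted modulator Fstl1 was at 1104, 1286 and 1277 CPM in DBL and 158, 243 and 272 CPM in TDonly (log2 fold change 2.48 ± 0.12, SE, edgeR adjusted p = 7.16e-06), and Fst rose by 3.25. FGF and HGF genes were higher at 13 of 23 and lower at 6, the lower share (26.1%) again being near that of all genes (21.0%). Fgf10, the mesenchymal ligand of lung branching, was at 26.5, 47.4 and 38.3 CPM in DBL and 2.41, 10.7 and 11.0 CPM in TDonly (log2 fold change 2.38 ± 0.26, SE, edgeR adjusted p = 1.88e-04). The ligand Fgf7 (2.80) and the receptor Fgfr1 (2.79) were higher. The ligand Fgf1 (-0.85), the receptors Fgfr2 (-0.64) and Fgfr3 (-0.39) and the feedback genes Dusp6 (-1.04), Spry4 (-0.66) and Etv5 (-0.66) were lower.

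In 4 pathways of the vessel wall, some ligand and receptor genes moved in opposite directions. Pdgfb, the ligand by which endothelium recruits mural cells, was lower, at 172, 95 and 104 CPM in DBL and 448, 286 and 277 CPM in TDonly (log2 fold change -1.46 ± 0.072, SE, edgeR adjusted p = 7.55e-06). Its receptor Pdgfrb was higher, at 344, 407 and 449 CPM in DBL and 47.1, 99.4 and 104 CPM in TDonly (log2 fold change 2.34 ± 0.16, SE, edgeR adjusted p = 1.61e-05), and Pdgfa did not pass the test (-0.06). Angpt1, the mural ligand of the endothelial receptor Tek, was higher, at 61.3, 89.0 and 71.1 CPM in DBL and 8.71, 25.4 and 22.5 CPM in TDonly (log2 fold change 2.07 ± 0.21, SE, edgeR adjusted p = 1.25e-04). Tek was lower, at 429, 469.8 and 447 CPM in DBL and 933, 1087 and 1169 CPM in TDonly (log2 fold change -1.24 ± 0.076, SE, edgeR adjusted p = 1.04e-05). Vegfd, listed as Figf, was at 92.8, 87.5 and 82.1 CPM in DBL and 7.18, 14.8 and 14.9 CPM in TDonly (log2 fold change 2.88 ± 0.22, SE, edgeR adjusted p = 2.68e-05). Its receptor Flt4 changed by -1.38. Kdr, another VEGF receptor, changed by -1.33, in the same direction as the ligand Vegfa (-0.70). Edn1, endothelin 1, was at 109, 30.3 and 27.7 CPM in DBL and 259, 92.2 and 102 CPM in TDonly (log2 fold change -1.57 ± 0.12, SE, edgeR adjusted p = 2.34e-05). Its receptor Ednra, of smooth muscle and fibroblasts, was at 109, 139 and 138 CPM in DBL and 9.97, 34.7 and 41.4 CPM in TDonly (log2 fold change 2.35 ± 0.29, SE, edgeR adjusted p = 3.19e-04), and Ednrb was lower. These pairs were picked out after their values were seen. Over the whole lists, PDGF and IGF genes were higher at 14 of 20 and lower at Pdgfb alone. Igf1, Igf2 and Igfbp4 rose by 3.47, 2.29 and 2.62. VEGF and angiopoietin genes were lower at 12 of 20, including Tie1 (-1.48), Aplnr (-1.44) and Vegfa (-0.70). The higher members of that list were Pgf (2.24), Vegfd, Adm (2.57), Angpt1, Angpt4 (3.13) and Nrp2 (0.41). Angpt2, at 68.1, 28.6 and 31.0 CPM in DBL and 99.7, 21.3 and 23.5 CPM in TDonly, was higher in the first series than in the second in both populations. Its log2 difference was 0.07 (95% interval -0.35 to 0.50), -0.037 with library totals as the scale and 0.41 without TDonly replicate 1 (edgeR adjusted p = 0.00640).

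Notch genes divided by receptor, with 11 of 17 lower and 5 higher. Dll4, the ligand of arterial endothelium, was at 112, 99.1 and 105 CPM in DBL and 263, 259.6 and 268 CPM in TDonly (log2 fold change -1.32 ± 0.070, SE, edgeR adjusted p = 7.90e-06). The ligands Dll1 (-1.51) and Jag2 (-1.50), the endothelial receptor Notch4 (-1.46) and the target Hey1 (-1.15) were lower. The mural receptor Notch3 was at 179, 194 and 200 CPM in DBL and 48.9, 88.2 and 80.1 CPM in TDonly (log2 fold change 1.44 ± 0.13, SE, edgeR adjusted p = 6.53e-05). Notch2 (0.95), the nuclear partner Rbpj (0.98), Heyl (2.47) and Hey2 (0.89) were higher. Of 23 vasoactive genes 13 were higher and 7 lower. Nos3, endothelial nitric oxide synthase, was lower, at 42.2, 27.0 and 30.2 CPM in DBL and 114, 89.4 and 89.6 CPM in TDonly (log2 fold change -1.57 ± 0.082, SE, edgeR adjusted p = 7.85e-06). The subunits of soluble guanylate cyclase that receive nitric oxide, Gucy1a1 (0.91) and Gucy1b1 (0.63), were higher. Ptgs2, the inducible cyclooxygenase, was at 313, 501 and 459.9 CPM in DBL and 82.7, 106 and 106 CPM in TDonly (log2 fold change 2.09 ± 0.084, SE, edgeR adjusted p = 5.83e-06). Of the natriuretic peptide receptors, Npr2 was higher (1.23) and Npr1 (-0.91) and Npr3 (-1.37) lower, as was Ece1 (-1.22).

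**Figure D4:**
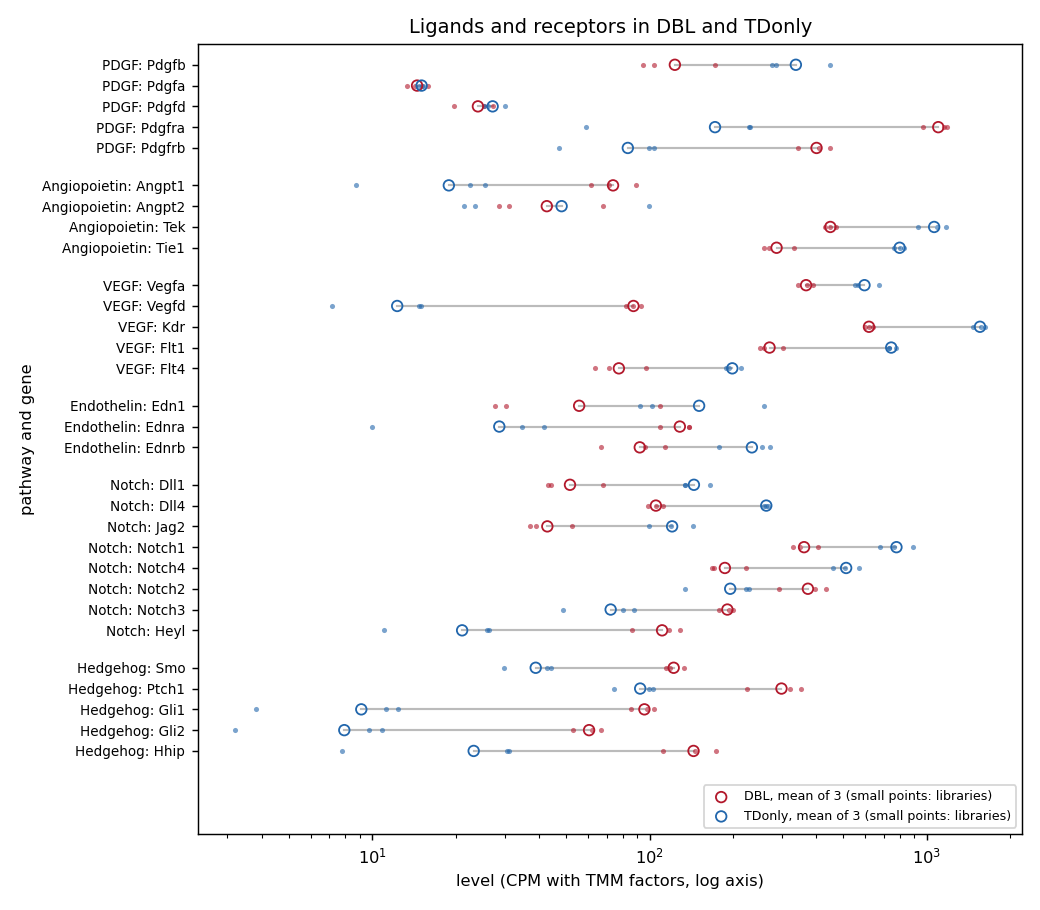
Levels of 30 ligand, receptor and target genes as CPM on a log axis, with open circles for means of 3, small points for libraries, red for DBL, blue for TDonly and a grey line joining the means. Pdgfb, Tek, Flt4, Edn1, Dll4 and Notch4 lie further left in DBL, and Pdgfrb, Angpt1, Vegfd, Ednra, Notch3 and all 5 hedgehog genes further right.

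Among chemokine and cytokine genes, ligands and receptors together, 20 of 33 were higher in DBL and 8 lower. The lower share (24.2%) was near that of all genes (21.0%). Ccl11, the eosinophil chemokine eotaxin, was at 109, 92.7 and 104 CPM in DBL and 2.52, 5.32 and 10.1 CPM in TDonly (log2 fold change 4.18 ± 0.36, SE, edgeR adjusted p = 5.04e-05). Il6, interleukin 6, was at 197, 339 and 329.8 CPM in DBL and 10.4, 30.6 and 34.9 CPM in TDonly (log2 fold change 3.63 ± 0.18, SE, edgeR adjusted p = 7.55e-06). Cxcl1 (3.83) and the receptors Il1r1 (1.65) and Il11ra1 (2.46) were higher. The lower members were Cx3cl1 (-1.29), Cxcr4 (-1.08), Cxcl12 (-0.76), Ccl3 (-1.75), Ackr4 (-1.13), Ccl5 (-0.84), Cxcl2 (-0.59) and Tnfrsf11b (-0.57). Complement and coagulation genes were higher at 19 of 32 and lower at 10. C3, the central complement protein, was at 7636, 5709 and 6245 CPM in DBL and 402, 1067 and 1112 CPM in TDonly (log2 fold change 3.04 ± 0.34, SE, edgeR adjusted p = 1.98e-04). Serping1, C1ra and tissue factor F3 rose by 3.21, 3.04 and 2.51. The lower ones were endothelial (Vwf and thrombomodulin Thbd, -0.55) or are made by macrophages (C1qa, C1qb and C1qc, -1.0, -1.50 and -1.18), with Plaur, F13a1, F5, F10 and Plau. MHC and antigen presentation genes were lower at 15 of 16 (median -0.99). The libraries of the populations did not overlap at 8 of the 16, against 46.6% of all genes. Their summed levels overlapped, at 2708 to 4937 CPM in DBL and 4778 to 7274 CPM in TDonly. Ciita, the class II regulator, was at 84.0, 18.6 and 19.2 CPM in DBL and 201, 48.3 and 48.8 CPM in TDonly (log2 fold change -1.32 ± 0.070, SE, edgeR adjusted p = 7.90e-06). The class II chain H2-Aa was at 142, 87.8 and 89.5 CPM in DBL and 287, 183 and 209.8 CPM in TDonly (log2 fold change -1.10 ± 0.079, SE, edgeR adjusted p = 1.98e-05). In each population their summed level was highest in replicate 1, and reads of H2 genes may be shared between close copies. Retinoid and lipid genes did not move together, 10 of 25 being higher and 5 lower, a lower share near that of all genes (21.0%). Rbp4 (3.35) and Vldlr (1.90) were higher, and Cyp26b1 (-1.50), Cd36 (-1.34), Gpihbp1 (-1.48), Fabp5 (-0.69) and Dhrs3 (-0.32) were lower.

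Transcripts of epithelium and leukocytes were present in both populations and were mostly lower in DBL. Of 25 epithelial markers 21 were lower and 2 higher (median -0.72). Their summed level was 8884 to 9646 CPM in DBL and 13094 to 17528 CPM in TDonly. Sftpc, surfactant protein C of alveolar type 2 cells, was at 4745, 4749 and 4857 CPM in DBL and 6657, 8439 and 8248 CPM in TDonly (log2 fold change -0.69 ± 0.084, SE, edgeR adjusted p = 3.04e-04). Scgb1a1, the club cell secretory protein, was at 106, 452 and 452 CPM in DBL and 333, 1762 and 1522 CPM in TDonly (log2 fold change -1.79 ± 0.087, SE, edgeR adjusted p = 7.55e-06). Pdpn and Trp63 were the higher epithelial members (1.55 and 2.05). Epcam was low in every library, at 6.99, 9.42 and 10.8 CPM in DBL and 12.3, 15.4 and 19.4 CPM in TDonly, and Krt5 was too low to test. Of 23 leukocyte markers 14 were lower (60.9%, against 21.0% of all genes) and none higher. The libraries of the populations did not overlap at only 4 of the 23, against 46.6% of all genes. The summed level of these markers was 1371 to 1698 CPM in DBL and 2161 to 3612 CPM in TDonly. Ptprc, the pan-leukocyte CD45, was at 5.38, 31.5 and 34.3 CPM in DBL and 22.3, 64.9 and 85.7 CPM in TDonly (log2 fold change -1.43 ± 0.18, SE, edgeR adjusted p = 4.05e-04). The T cell gene Cd3e was at 0.236, 1.26 and 1.46 CPM in DBL and 0.535, 1.73 and 2.19 CPM in TDonly. Erythrocyte and platelet markers were lower at 5 of 9 and higher at Gp1bb (0.85), and neural and Schwann cell markers at 1 of 13 in each direction (Erbb3 at -0.54 and Ngfr at 1.71). The part of these cell types in the endothelial and matrix differences was not tested.

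The genes of largest fall by the naming rule were not among the 30 endothelial markers of the panel. The 10 genes that fell furthest by the naming rule began with Bpifa1 (-2.30), the airway mucin Muc5b (-2.29), Chi3l3 (-2.27), Bpifb1 (-2.21) and Ccl6 (-2.20). The others were Reg3g (-2.11), Scgb3a1 (-2.08), Cytl1 (-1.98), cathepsin S Ctss (-1.92) and the scavenger receptor Olr1 (-1.71). Bpifa1, a secreted airway protein, was at 5.97, 21 and 27.0 CPM in DBL and 30.3, 117 and 116 CPM in TDonly (log2 fold change -2.30 ± 0.11, SE, edgeR adjusted p = 7.11e-06). Chi3l3, the alveolar macrophage protein Ym1 (now Chil3), was at 33.2, 88.0 and 96.3 CPM in DBL and 183, 347 and 488 CPM in TDonly (log2 fold change -2.27 ± 0.14, SE, edgeR adjusted p = 1.04e-05). These falls were larger than that of any of the 30 endothelial markers. In both populations the levels were lowest in replicate 1, except for Cytl1 and Olr1. Penk, the precursor of opioid peptides, rose furthest by the naming rule, at 39.5, 56.1 and 63.6 CPM in DBL and 0.764, 3.55 and 4.75 CPM in TDonly (log2 fold change 4.27 ± 0.30, SE, edgeR adjusted p = 1.86e-05). The other 9 were Ccl11, Dcn, Lum, the potassium channel Kcnt2 (4.13), Gdf10, the pentraxin Ptx3 (4.07), Zcchc5 (4.06), Fbln1 and the adhesion protein Lsamp (4.02). The most abundant genes among those at least 2-fold higher included the endocytic receptor Lrp1 (3.08) and the actin-severing protein Gsn. Gsn was at 12964, 20014 and 21884 CPM in DBL and 498, 2285 and 2505 CPM in TDonly (log2 fold change 3.64 ± 0.31, SE, edgeR adjusted p = 4.58e-05).

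Immediate early genes, which respond within minutes to stress or tissue handling, were abundant in both populations and higher in DBL. Of 23 immediate early and heat shock genes 17 were higher and 1 lower (median 0.71). Their sum was 23896 to 33204 CPM in DBL and 14563 to 17630 CPM in TDonly. Fos was at 3769.7, 5416 and 5505 CPM in DBL and 1720.3, 2608 and 2583 CPM in TDonly (log2 fold change 1.09 ± 0.066, SE, edgeR adjusted p = 1.03e-05). Egr1, Fosb, Nr4a1 and Nr4a2 rose by 1.11, 1.17, 1.91 and 1.73. Ier3 was lower (-0.79), and the inducible heat shock genes Hspa1a (1.12) and Hspa1b (1.27), near-identical copies whose reads cannot be assigned with certainty, were higher. The part of cell handling in other differences was not tested. Cell cycle genes were lower at 9 of 22 (40.9%, against 21.0% of all genes) and higher at none (median -0.37). The other 13 did not pass the test. The libraries of the populations did not overlap at only 4 of the 22, against 46.6% of all genes. Mki67, the proliferation marker, was at 37.0, 19.2 and 16.9 CPM in DBL and 54.4, 27.7 and 33.5 CPM in TDonly (log2 fold change -0.69 ± 0.11, SE, edgeR adjusted p = 0.00128). The replication factors Mcm2 (-0.62) and Mcm3 (-0.78) were lower too.

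The difference between the populations was not the same size in both series for part of the genes. At 787 of 15321 genes (5.14%) the population difference differed between the first and second series at an adjusted p under 0.05 (edgeR interaction test), and 653 of these also differed between populations. Of the 653, 612 were higher in DBL, 579 of them by more in the first series, and 41 were lower, 9 of them by more in the first series. The opposite sign in the series was seen at 3 of the 653. For Col1a1 the log2 difference was 4.75 within the first series and 3.06 within the second, for Pi16 5.17 and 2.98, and for Msln 3.41 and 1.15. The interaction passed at 21 of 25 adventitial, 17 of 19 alveolar fibroblast, 12 of 13 mesothelial and 7 of 11 fibrillar collagen genes, and at 3 of 30 endothelial genes. The median differences were 4.18 and 2.87 for the adventitial list, 2.84 and 1.33 for the alveolar list, 3.30 and 1.21 for the mesothelial list and -1.29 and -1.54 for the endothelial list, in the first and second series. TDonly replicate 1 held the lowest summed level of each of the 3 mesenchymal lists among all 6 libraries, at 3023, 3772 and 189 CPM. With 1 library of each population in the first series, a difference of that series and a difference of DBL replicate 1 or TDonly replicate 1 cannot be told apart. The second series gives the differences without either library, and there Cdh5 and Foxf1 differed by -1.64 and -1.28.

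**Figure D5:**
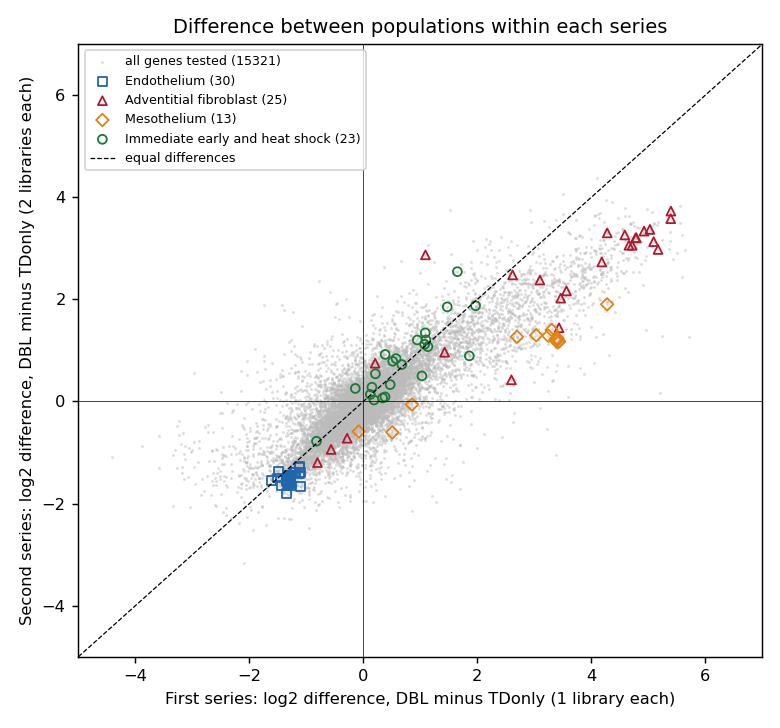
Each grey point is 1 of the 15321 genes tested, with its log2 difference (DBL minus TDonly) within the first series on the x axis (1 library each) and within the second on the y axis (2 libraries each). The dashed line marks equal differences. Adventitial fibroblast (red) and mesothelial (orange) markers lie mostly below the line on the right, with larger differences in the first series, and the 30 endothelial markers (blue) cluster near the line at medians of -1.29 and -1.54.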

How the data were processed

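RNA of sorted lung cells was sequenced, and the authors deposited 1 table of raw gene counts, whole reads per gene symbol with no normalization. The submitters' processing notes name cutadapt, TopHat, HTSeq and the mm10 build; the sources used here give neither their versions nor the strand setting. The table also holds 3 count columns that match no sample's labels, and these were not used. Counts of the 6 libraries were tested with edgeR 4.0.16 (R 4.3.3): filterByExpr with a minimum count of 10, TMM factors, and a two-sided quasi-likelihood test with the core number series as covariate (3 residual degrees of freedom), Benjamini-Hochberg adjustment over all 15321 genes and a threshold of 0.05. SE is the log2 fold change divided by the square root of F, and intervals are 95%. The series difference was tested as an interaction with 2 residual degrees of freedom. RPKM here is CPM per kilobase of annotated exon.

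The members and gene lists were chosen with earlier results of these data known, so list counts are descriptions. Named are Col1a1, Col1a2, Foxf1 and Fendrr, and the 10 largest and the 10 most abundant changes in each direction. These changes had at least 10 CPM in the higher population, no overlap and the same sign in both series. The abundant ones were at least 1 on the log2 scale, and 227 unnamed models and small RNAs were left out. Up to 6 members of each list by adjusted p are also named, with any that went against it. So are defining cell type markers, and pathway partners picked after their values were seen. Of 19348 symbols, 17345 matched GENCODE vM21 and 1678 a RefSeq synonym (both GRCm38), and some older symbols are given under current names. Simulated counts for this comparison (15195 genes tested) gave back 88.0% of 100 genes changed 2-fold, 100% of 100 changed 4-fold and 23 false calls among 15121 unchanged genes. Only those genes were changed, equally in each direction, with no population difference that varied by series. In the real counts 6588 genes differed and 787 differed by series, so these rates may not carry over. DESeq2 1.42.0, limma 3.58.1, other scalings, filters, covariates and sets of libraries were tried as alternatives. Promoters are RefSeq windows. Some genes are not reported here.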

Additional observations from a re-analysis of the deposited data

Results flagged for a closer look

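The population difference differed between the first and second core series at 787 genes at an adjusted p under 0.05 in an interaction test with edgeR, and 2328 genes passed at an unadjusted p under 0.05. Among genes named for size or abundance, the test passed at 15, and the interaction below is the log2 difference of the second series minus that of the first. It was -1.69 for Col1a1, -1.65 for Col1a2 and -1.70 for Col3a1, the collagen chains. Among other matrix and fibroblast genes it was -1.82 for Dcn, -1.21 for Lum, -1.65 for Fbln1, -1.37 for Gdf10, -1.57 for Gsn and -1.67 for Lrp1. For the secreted mediators it was -1.83 for Penk, -1.75 for Ccl11, -1.63 for Ptx3 and -1.79 for C3, and for Zcchc5 -2.55. Each of these 14 genes was higher in DBL in both series and by more in the first series. For Vwf, lower in DBL in both series, it was -0.44, a larger fall in the second series. The adjusted p of the interaction ran from 4.75e-08 (Col1a1, Col1a2, Col3a1 and C3) to 0.0348 (Zcchc5).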

How the results depend on the processing

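Of 6588 genes that differed, 3372 were higher and 3216 lower. The count was 6657 with DESeq2 size factors, 7045 with library totals, 6995 with upper-quartile factors, 6692 without a filter, 4864 with a filter of 10 CPM in 3 libraries, 6628 with DESeq2, 6674 with limma-voom, 6199 with a block of neighbouring core sample numbers (a grouping no label names), 5626 in all 9 libraries with the series covariate and 6718 in the second series alone. Leaving out 1 library gave 5282 to 6743. Library totals moved the median of all genes from -0.02 to -0.14. A test against a 2-fold change (glmTreat) left 1478 genes, 1107 higher and 371 lower. Without the series covariate 4596 genes differed (1980 lower), and 4657 in all 9 libraries without it (1965 lower); the cause was not tested. Of 335 named genes, 37 and 42 calls ended in these fits, 24 in all 9 libraries with the covariate and 101 under glmTreat.

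The replicate block left 3193 genes, 1860 higher and 1333 lower, and ended the call of 40 of the named genes. Col4a1, Col4a2, Col18a1 and Wnt2 lost their calls both under the block and without the covariate. The populations share only numbers 1 and 3, and the deviations of those libraries from their group means correlated across genes at 0.53 and 0.25. The first of these pairs is also the whole first series, and the 3 pairs of differing numbers within the second series gave 0.30 to 0.35. These correlations cannot decide whether a shared number marks a pairing, because the split between series enters every deviation. The numbers were treated as only a label in common.

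Genes that did not pass changed sign in places. Angpt2 gave -0.037 with library totals, -0.053 with limma-voom, -0.18 without the covariate, -0.14 with the replicate block, and -0.042 and -0.23 in 9 libraries with and without the covariate (-0.072 to 0.43 leaving out 1 library). Hoxa5 gave -0.085 with library totals and -0.037 with upper-quartile factors. Lpl gave 0.032 with the block (-0.27 to 0.010 leaving out 1 library). Ces1d gave -0.0040 in 9 libraries without the covariate and -0.23 in the second series alone (-0.25 to 0.27 leaving out 1 library). The calls of C1qa, Ccl5, Cxcl2, Fibin, Gja5, Gp1bb, Hey2, Klf4, Krt8, Nrp2, Prox1 and Tnfrsf11b ended when at least 1 single library was left out, with edgeR adjusted p from 0.0506 (Nrp2 without TDonly replicate 2) to 0.204 (C1qa without TDonly replicate 3). The 787 genes that differed between the series became 643 to 1032 under other scalings and filters and 692 to 1072 without 1 library of the second series, settings chosen after seeing the data. Genes below the filter on low counts were not tested, Krt5 among them.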

Other observations

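Some gene families, whose members partly belong to the lists above, held many genes that changed. These families were picked after their values were seen, from all families of at least 10 tested genes with a shared symbol stem, so their counts carry no test. Of 16 tested ADAMTS proteases, which cut proteoglycans and procollagen, 14 were higher in DBL and none lower, with a median log2 fold change of 1.85. The procollagen peptidase Adamts2 averaged 732 CPM in DBL and 71.6 in TDonly, and the aggrecanase Adamts5 208 and 25.5 CPM, while Adamts1 was abundant in both (1399 and 1274 CPM) and did not pass the test. Of 21 protocadherin beta genes, neighbouring cell adhesion genes whose sequences are alike, 12 were higher and 1 lower (median 0.65), with Pcdhb16 at 31.6 and 13.9 CPM.

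Tetraspanins, membrane organisers, were lower at 10 of 19 and higher at 4 (median -0.83). The higher share (21.1%) was near that of all genes (22.0%). Tspan7 averaged 420.1 CPM in DBL and 1190.2 in TDonly (log2 fold change -1.49) and Tspan18 255 and 613 CPM (-1.26), whereas Tspan11 was higher, at 178 and 59.1 CPM (1.59). C-type lectin genes were lower at 14 of 19 and higher at 2, Clec3b and Clec11a. The lower ones included Clec14a, an endothelial gene, at 296 and 823 CPM, and Clec7a, the beta-glucan receptor of myeloid cells, at 11.7 and 38.7 CPM. Axonemal dynein heavy chains, the motors of motile cilia, were lower at 7 of 11 and higher at none (median -0.83), and Dnahc5 averaged 13.6 CPM in DBL and 27.6 CPM in TDonly.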
